A study of Caenorhabditis elegans with 4 samples.

Results

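The eggshell and egg activation genes are 10 of the 46926 features of the count tables: cpg-1, cpg-2, cpg-3, egg-1, egg-2, egg-3, cbd-1, chs-1, perm-2 and perm-4. They were chosen by symbol from what their proteins are known to do, with earlier results of these data known, and all 10 were found in the 4 libraries. Single nuclei of whole Caenorhabditis elegans hermaphrodites on day 1 of adulthood were profiled, with 1 library of pooled worms per condition. The ent-1KO;ent-2KD worms carried a knockout of ent-1 and were fed HT115 bacteria making double-stranded RNA against ent-2. The ent-1KO worms and the ent-2KO worms each lacked 1 of these equilibrative nucleoside transporter genes and ate HT115 with the empty L4440 vector. The ctrl worms were the wild-type strain N2 on the same empty-vector bacteria, so all 4 groups were fed HT115.

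The eggshell of the worm is built in layers around the oocyte within minutes of fertilization. The outer vitelline layer is present before fertilization and is remodelled afterwards, chitin is then laid down by a synthase in the plasma membrane, and cortical granules release the chondroitin proteoglycans that line the chitin from inside. A lipid-rich permeability barrier closes the shell. Transcripts for most of these proteins are made in the germline and loaded into growing oocytes, where egg activation proteins wait at the cortex until a sperm enters.

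Nuclei were counted in unique molecular identifiers (UMIs, tags of single transcript molecules). Levels are given as UMIs of the gene scaled to the total UMIs of the class of nuclei (CPM), with exact 95% Poisson intervals that cover counting error only. With 1 library per condition no test was possible and no p-value is given. A difference is therefore called past 2-fold or not, and ratios are log2 ratios of CPM with 0.5 UMIs added to each count. After removal of likely doublets, 11744, 13151, 11190 and 10577 nuclei were kept in ent-1KO;ent-2KD, ent-1KO, ent-2KO and ctrl, with 18503987 to 28792812 UMIs per library. Pairs of libraries shared 43 to 61 barcodes. Germline-like nuclei were 27.3% of the nuclei in ent-1KO;ent-2KD, against 57.2% in ent-1KO, 59.0% in ent-2KO and 59.9% in ctrl, so the ent-1KO;ent-2KD library stood apart in its mix of nuclei. Within the germline-like nuclei, 4 of 13 sub-clusters were called oocyte-like from a marker list that holds none of the 10 genes. These numbered 417 nuclei in ent-1KO;ent-2KD, 996 in ent-1KO, 803 in ent-2KO and 606 in ctrl. Their summed oocyte markers reached 13042, 10383, 10587 and 9603 CPM in that order of libraries. The remaining germline-like nuclei had no stage name. Embryo-like nuclei numbered 781 in ent-1KO, 942 in ent-2KO and 929 in ctrl but only 8 in ent-1KO;ent-2KD, which is too few to compare.

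In oocyte-like nuclei ent-1 was at 15.4 CPM in ent-1KO;ent-2KD and 17.5 CPM in ent-1KO, against 84.8 CPM in ctrl. ent-2 was at 5.32 CPM in ent-1KO;ent-2KD and 1.77 CPM in ent-2KO, against 10.3 CPM in ctrl, where it rested on 19 UMIs. The counts are of transcript 3′ tags and do not show the extent of a deletion.

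Positions are those of build WBcel235. cpg-1 (III:4489359-4491392, plus strand, 4 exons), cpg-2 (III:7102092-7103990, minus strand, 5 exons), egg-1 (III:5728180-5730159, plus strand, 5 exons) and egg-2 (III:7058527-7060583, minus strand, 5 exons) lie on chromosome III. cpg-3 (I:7244937-7246295, plus strand, 5 exons) and chs-1 (I:7554855-7559916, plus strand, 11 exons) lie on chromosome I, and egg-3 (II:10882408-10884441, minus strand, 6 exons) on chromosome II. cbd-1 (IV:11372991-11377627, plus strand, 10 exons), perm-4 (IV:1121494-1125107, minus strand, 4 exons) and perm-2 (IV:1126790-1128865, plus strand, 5 exons) lie on chromosome IV. perm-4 and perm-2 are neighbouring coding genes that point away from each other with 1682 bases between them. cpg-3 overlaps R06C7.6 on the other strand by 221 bases, and chs-1 overlaps T25G3.3 on its own strand by 78 bases. In oocyte-like nuclei R06C7.6 was at 9.58 CPM in ent-1KO;ent-2KD and 12.4 CPM in ctrl, far below cpg-3. T25G3.3 was at 99.6 CPM in ent-1KO;ent-2KD and 65.9 CPM in ctrl, a log2 ratio of 0.59 (0.26 to 0.94), so part of the chs-1 count may not be its own. Whether the counting used strand is not given in the sources used here.

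The 8 genes other than perm-2 and perm-4 were highest in oocyte-like nuclei in each of the 4 libraries, as the plot of levels by class of nuclei shows. cpg-1, which encodes a chitin-binding chondroitin proteoglycan of the inner eggshell, was at 2102 CPM (2037 to 2169) in oocyte-like nuclei of ent-1KO;ent-2KD, 1959 CPM (1915 to 2004) in ent-1KO, 2266 CPM (2211 to 2322) in ent-2KO and 1850 CPM (1788 to 1913) in ctrl. Its level in the other germline-like nuclei was 811, 1025, 1043 and 919 CPM in the same order, less in every library. In hypodermis-like nuclei, which have no known role in making the shell, cpg-1 was still at 193 CPM in ent-1KO;ent-2KD, 334 in ent-1KO, 391 in ent-2KO and 466 in ctrl. Such levels in somatic nuclei are read here as background.

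**Figure D1:**
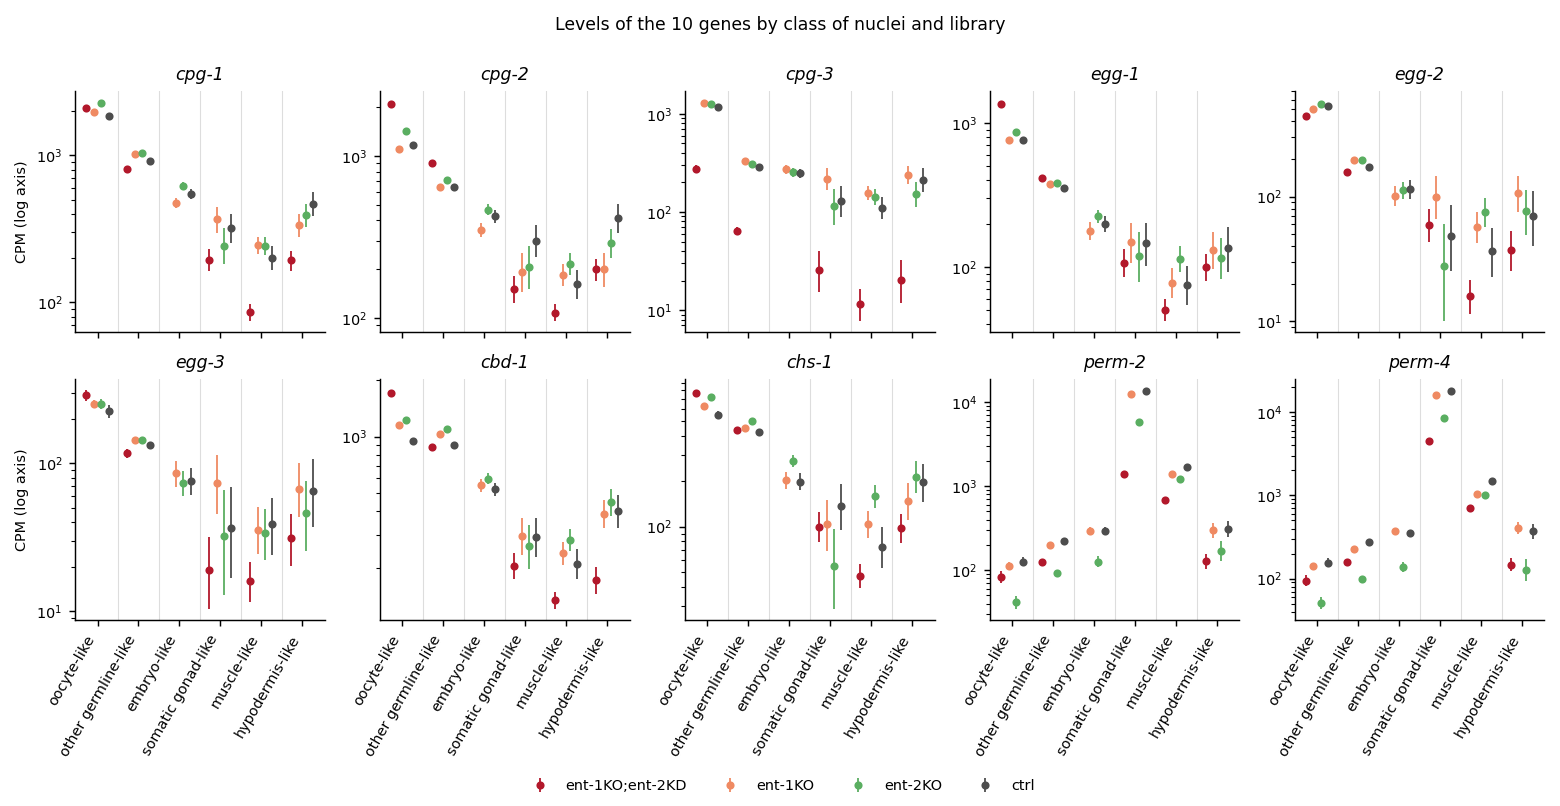
Level of each of the 10 genes in CPM (log axis) in 6 classes of nuclei, with 1 point per library in the order ent-1KO;ent-2KD, ent-1KO, ent-2KO, ctrl and bars for the exact 95% Poisson interval. The 8 genes other than perm-2 and perm-4 peak in oocyte-like nuclei, perm-2 and perm-4 peak in somatic gonad-like nuclei, and the ent-1KO;ent-2KD points of cpg-3 lie far below the others in every class drawn for that library.

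The excess of oocyte-like over other germline-like nuclei differed between the genes. In ctrl it was 4.10-fold for cpg-3, 3.04-fold for egg-2, 2.16-fold for egg-1, 2.01-fold for cpg-1, 1.82-fold for cpg-2, 1.69-fold for egg-3 and 1.30-fold for chs-1. For cbd-1, a chitin-binding protein of the vitelline layer, it was only 1.05-fold in ctrl, with 943 CPM in oocyte-like and 898 CPM in other germline-like nuclei. In ent-1KO;ent-2KD the excess of cbd-1 was 1.94-fold and that of egg-1 3.27-fold. perm-2 and perm-4 ran the other way, at 0.565-fold each in ctrl.

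Over the 13 germline sub-clusters, the mean CPM of the 4 libraries was highest in an oocyte-like sub-cluster for all 8 genes. Sub-cluster 12, led by lin-41 and inos-1, was the highest for 7 of them. Its mean was 2477 CPM for cpg-1, 1759 for cpg-2, 1087 for egg-1, 576 for egg-2, 288 for egg-3, 1475 for cbd-1 and 798 for chs-1. cpg-3 was highest in oocyte-like sub-cluster 7, at 1166 CPM, and lowest in sub-cluster 0, led by germline genes such as ppw-2 and htp-1, at 101 CPM. This was an 11.5-fold range, against 4.82-fold for cpg-1 and 2.63-fold for cbd-1. Sub-cluster 5, which was led by lin-41 but missed the score for an oocyte name, had cpg-3 at 896 to 1034 CPM in the 3 libraries other than ent-1KO;ent-2KD. The 10 genes were kept out of the genes that set the clusters, but correlated genes were not.

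**Figure D2:**
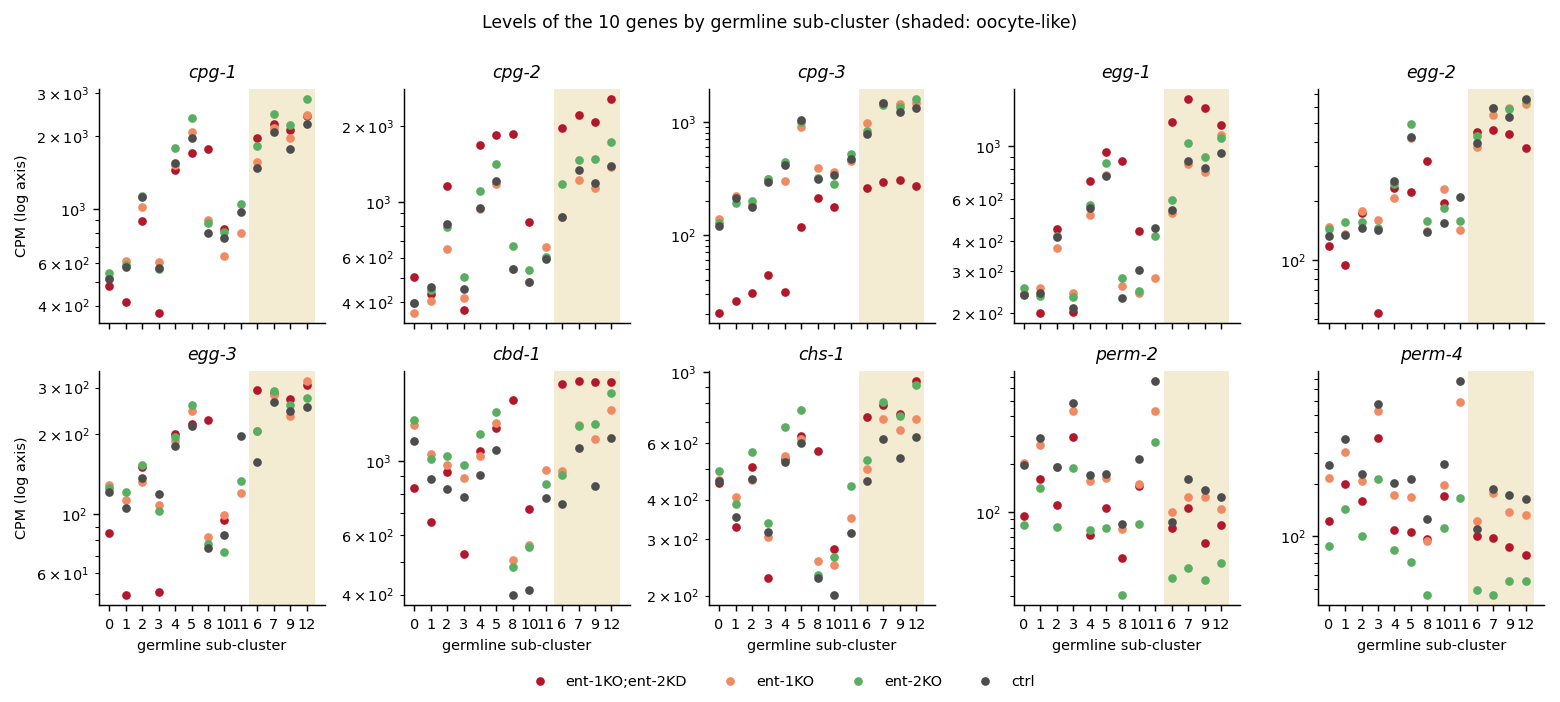
Level of each gene in CPM (log axis) in each germline sub-cluster with at least 50 nuclei in a library, with 1 point per library; the 4 oocyte-like sub-clusters are shaded. The 8 genes other than perm-2 and perm-4 reach their highest levels in the shaded sub-clusters, perm-2 and perm-4 do not, and the ent-1KO;ent-2KD points of cpg-3 fall below all others.

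In embryo-like nuclei the 8 genes were lower than in the other germline-like nuclei in each of the 3 libraries compared. cpg-1 was at 475 CPM (435 to 516) in ent-1KO, 618 CPM (579 to 659) in ent-2KO and 544 CPM (503 to 587) in ctrl. The neuron-like nuclei of the same libraries had 562, 501 and 418 CPM of it, so the embryo-like level was the lower in ent-1KO and the higher in ent-2KO and ctrl. In ctrl the intestine-like level of 567 CPM (495 to 646) overlapped that of the embryo-like nuclei. cpg-3 was at 272, 253 and 247 CPM in embryo-like nuclei of ent-1KO, ent-2KO and ctrl, beside 299, 212 and 237 CPM in neuron-like nuclei. cbd-1 was at 550, 597 and 526 CPM in embryo-like and 615, 566 and 564 CPM in neuron-like nuclei. The intervals of embryo-like and neuron-like nuclei overlapped within each of the 3 libraries for cpg-3 and cbd-1, whose embryo-like levels could thus not be told from background.

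Shares of nuclei with at least 1 UMI were compared after each nucleus had been thinned to 500 UMIs. cpg-1 was seen in 62.1% (57.3 to 66.8) of oocyte-like nuclei in ent-1KO;ent-2KD, 59.9% (56.8 to 63.0) in ent-1KO, 65.8% (62.4 to 69.0) in ent-2KO and 58.4% (54.4 to 62.4) in ctrl, with exact binomial intervals. In muscle-like nuclei, which should lack the transcript, it was seen in 3.13%, 7.69%, 9.01% and 6.43%. Without thinning, the median oocyte-like nucleus held 3865, 3723.5, 3276 and 2869 UMIs and the median muscle-like nucleus 2272, 2237.5, 1983 and 1859 UMIs in these libraries, so that depth differed between classes and libraries; no nucleus was left out by the thinning.

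The comparison of ent-1KO;ent-2KD with ctrl asks what loss of both transporters does to these transcripts. In oocyte-like nuclei cpg-3 fell past 2-fold, none of the 10 genes rose past 2-fold, and the other 9 lay between −0.71 and 0.86 on the log2 scale. Of the 6532 genes above the minimum (20 CPM in 1 of the 2 libraries and 50 UMIs over both), 7.76% were lower past 2-fold and 7.52% were higher past 2-fold, so 1 of 10 lower is near the share of all genes. The median log2 ratio was 0.27 over the 10 genes and 0.42 over the 8 other than perm-2 and perm-4, beside 0.06 over all genes tested. Without integration of the libraries the median over the 10 genes was −0.05. All UMIs of the 10 genes together made 9216 CPM in ent-1KO;ent-2KD, against 7917 in ent-1KO, 8631 in ent-2KO and 7484 in ctrl. Over all germline-like nuclei cpg-3 was again the only one of the 10 that fell past 2-fold and none rose, beside 5.63% of 6535 genes lower and 6.09% higher. These calls depended on the clustering: without integration cpg-3 was at −0.99, under 2-fold, perm-2 and perm-4 fell past 2-fold, and cpg-2 and egg-1 rose past it. In that clustering 775 of 896 germline-like nuclei of ent-1KO;ent-2KD were oocyte-like, against 739 of 6282 in ctrl. The part of this mix in the calls was not tested. In oocyte-like nuclei cpg-3 fell past 2-fold without integration too.

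**Figure D3:**
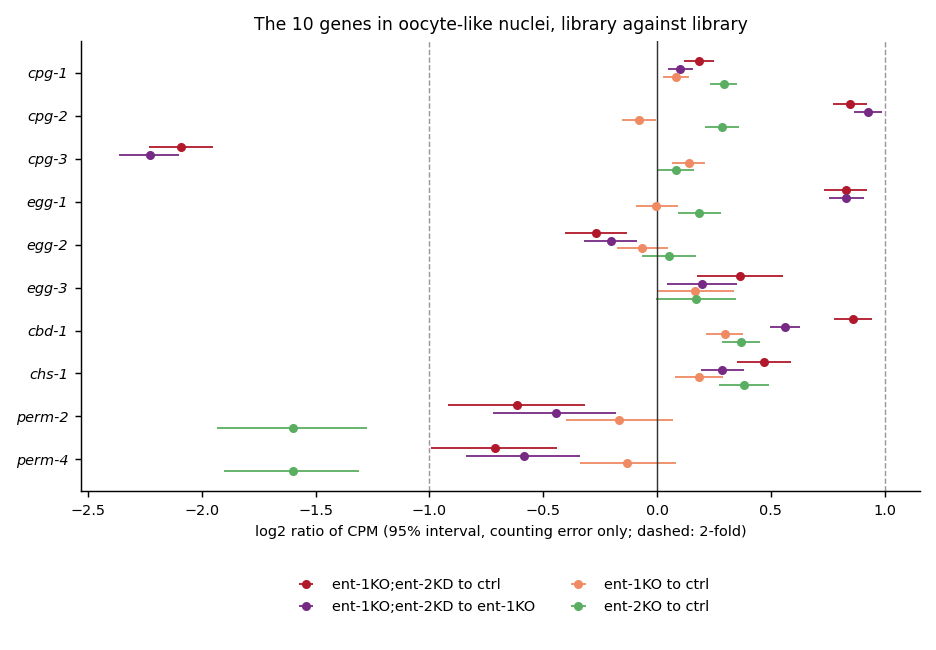
Log2 ratio of CPM in oocyte-like nuclei for each gene, with 1 point per comparison and bars for the 95% interval of counting error; dashed lines mark 2-fold. cpg-3 is past 2-fold in both comparisons of ent-1KO;ent-2KD, and perm-2 and perm-4 are past it in ent-2KO to ctrl.

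The chondroitin proteoglycan genes moved apart. cpg-3 was at 275 CPM (252 to 300) in oocyte-like nuclei of ent-1KO;ent-2KD, 1292 CPM (1257 to 1329) in ent-1KO, 1243 CPM (1202 to 1285) in ent-2KO and 1173 CPM (1124 to 1224) in ctrl. The ent-1KO;ent-2KD library alone was low, and the other 3 lay close together. Relative to ctrl this was −2.09 (−2.23 to −1.95) on the log2 scale, and 1.62% of the genes tested had a lower ratio. cpg-2, whose product shares the inner eggshell layer with that of cpg-1, was at 2102 CPM (2037 to 2169) in ent-1KO;ent-2KD, 1106 CPM (1073 to 1139) in ent-1KO, 1423 CPM (1380 to 1468) in ent-2KO and 1168 CPM (1119 to 1218) in ctrl. This was a log2 ratio of 0.85 (0.77 to 0.92) to ctrl, under 2-fold, and 11.3% of genes were higher. For cpg-1 the ratio was 0.18 (0.12 to 0.25). cpg-1 and cpg-2 were each counted by 3948 UMIs in these nuclei of ent-1KO;ent-2KD.

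cpg-3 was lower across the germline-like nuclei too, but not every sub-cluster had it above background. The other germline-like nuclei held 63.6 CPM of it in ent-1KO;ent-2KD, against 328 in ent-1KO, 309 in ent-2KO and 286 in ctrl. It was lower in ent-1KO;ent-2KD than in ctrl in 12 of the 12 sub-clusters with at least 50 nuclei in both libraries, and past 2-fold in 10 of them. In sub-clusters 0 and 2 its highest level in any library was 139 and 198 CPM, below the hypodermis-like level in ctrl given below. cpg-3 could not be told from background there, so these counts include differences in background. The log2 ratio ran from −3.70 (−4.73 to −2.94) in sub-cluster 4 to −0.56 (−0.92 to −0.22) in sub-cluster 8. In sub-cluster 5 cpg-3 was at 117 CPM in ent-1KO;ent-2KD and 1034 CPM in ctrl. Among nuclei thinned to 500 UMIs, 11.8% (8.82 to 15.2) of oocyte-like nuclei held a cpg-3 UMI in ent-1KO;ent-2KD, against 47.7% (44.5 to 50.8) in ent-1KO, 46.1% (42.6 to 49.6) in ent-2KO and 42.7% (38.8 to 46.8) in ctrl. The share in muscle-like nuclei was 0.736%, 8.79%, 7.32% and 8.21%.

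**Figure D4:**
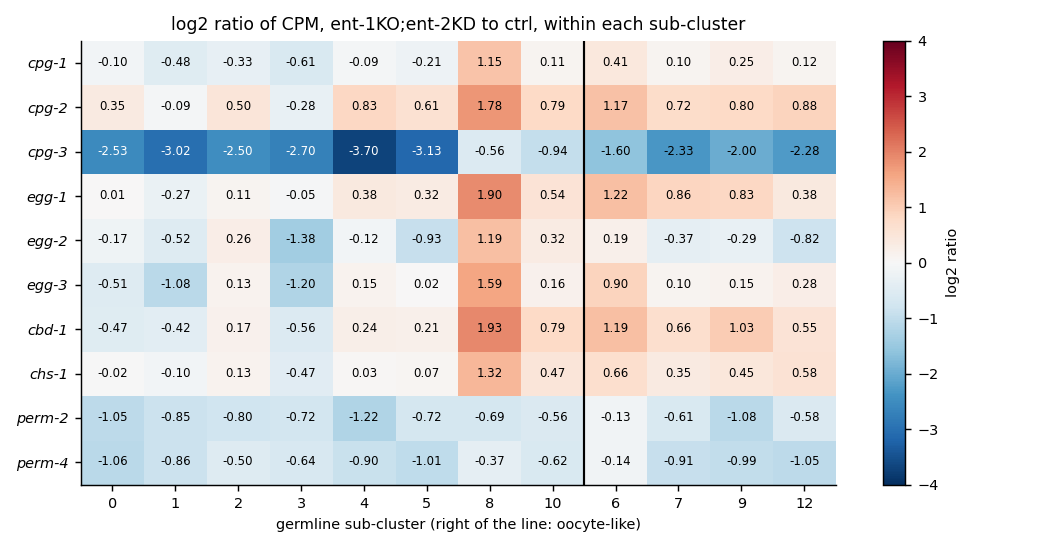
Log2 ratio of CPM of ent-1KO;ent-2KD to ctrl for each gene (rows) within each germline sub-cluster that had at least 50 nuclei in both libraries (columns); red is higher and blue lower in ent-1KO;ent-2KD. The cpg-3 row is below 0 in all 12 columns, and column 8 is above 1 for 7 of the 8 genes other than perm-2 and perm-4.

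Outside the germline, where levels are read as background, cpg-3 was also lower in ent-1KO;ent-2KD. cpg-3 was lower in ent-1KO;ent-2KD than in ctrl in 9 of 9 classes of nuclei, the oocyte-like, other germline-like and sperm-like nuclei included, with log2 ratios of −3.37 to −1.65, and the hypodermis-like level was 20.4 CPM in ent-1KO;ent-2KD and 212 CPM in ctrl. The direction was not particular to cpg-3: cpg-1, egg-2, egg-3 and cbd-1 were lower in 8 of these classes, chs-1 and egg-1 in 7 and cpg-2 in 6. The median log2 ratio over the classes was −2.57 for cpg-3 and −0.97 to −0.45 for these other genes. Of all UMIs of the 8 genes other than perm-2 and perm-4, cpg-3 took 3.05% in oocyte-like nuclei of ent-1KO;ent-2KD, against 16.9% in ent-1KO, 14.6% in ent-2KO and 16.3% in ctrl. In hypodermis-like nuclei it took 2.39%, 14.8%, 8.82% and 10.9% in the same order. The make-up of the background thus differed between libraries in the same direction as that of the oocyte-like nuclei. After the level in muscle-like nuclei of the same library had been subtracted, 264 CPM of cpg-3 were left in oocyte-like nuclei of ent-1KO;ent-2KD and 1063 CPM in ctrl, a log2 ratio of −2.01.

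**Figure D5:**
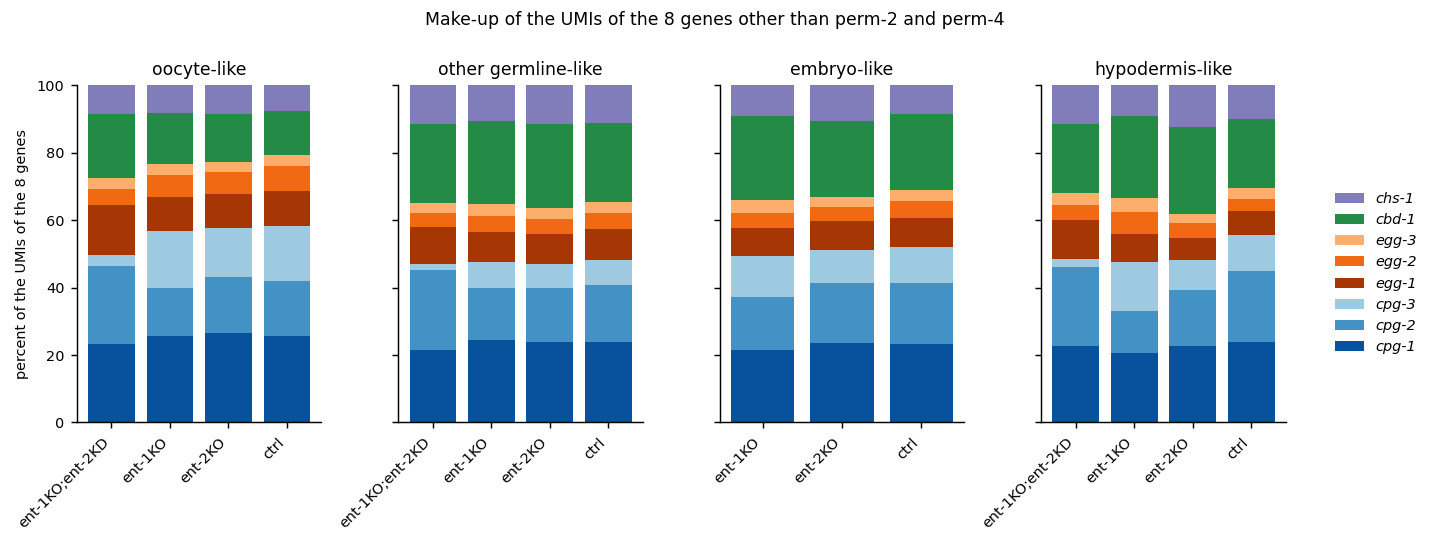
Percent of the UMIs of the 8 genes other than perm-2 and perm-4 that each gene took, by library, in oocyte-like, other germline-like, embryo-like and hypodermis-like nuclei. The band of cpg-3 is narrow in ent-1KO;ent-2KD in each class drawn, at 3.05% in oocyte-like nuclei against 16.3% in ctrl; ent-1KO;ent-2KD has too few embryo-like nuclei to be drawn there.

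The EGG genes split as well. egg-1 and egg-2 encode related oocyte membrane proteins with LDL-receptor repeats that are needed for sperm entry, and reads of the pair may be split between them. egg-1 was at 1353 CPM (1300 to 1406) in oocyte-like nuclei of ent-1KO;ent-2KD, 760 CPM (733 to 788) in ent-1KO, 866 CPM (832 to 901) in ent-2KO and 761 CPM (722 to 802) in ctrl, a log2 ratio to ctrl of 0.83 (0.73 to 0.92). egg-2 was at 440 CPM (410 to 471) in ent-1KO;ent-2KD, 507 CPM (484 to 530) in ent-1KO, 549 CPM (522 to 577) in ent-2KO and 530 CPM (497 to 564) in ctrl, a ratio of −0.27 (−0.40 to −0.13). egg-1 was thus above and egg-2 below the other libraries in ent-1KO;ent-2KD, neither by 2-fold. egg-3, a pseudophosphatase that anchors chitin synthase and the kinase MBK-2 at the oocyte cortex, was at 289 CPM (265 to 314) in ent-1KO;ent-2KD, 252 CPM (236 to 268) in ent-1KO, 253 CPM (234 to 272) in ent-2KO and 224 CPM (203 to 247) in ctrl. Its ratio to ctrl was 0.36 (0.18 to 0.55).

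cbd-1 and chs-1, the chitin synthase of the eggshell, had their highest values in ent-1KO;ent-2KD, although the interval of chs-1 overlapped that in ent-2KO. In oocyte-like nuclei cbd-1 was at 1712 CPM (1654 to 1773) in ent-1KO;ent-2KD, 1158 CPM (1125 to 1193) in ent-1KO, 1218 CPM (1178 to 1260) in ent-2KO and 943 CPM (899 to 988) in ctrl. Its log2 ratio to ctrl was 0.86 (0.78 to 0.95). The level in the other germline-like nuclei was 884 CPM in ent-1KO;ent-2KD and 898 CPM in ctrl, but this pooled value hides sub-clusters that went both ways. cbd-1 was above ctrl in all 4 oocyte-like sub-clusters and in 5 of the 8 others compared. chs-1 was at 766 CPM (727 to 806) in ent-1KO;ent-2KD, 628 CPM (603 to 653) in ent-1KO, 720 CPM (689 to 752) in ent-2KO and 553 CPM (520 to 588) in ctrl, a ratio of 0.47 (0.35 to 0.59). After the muscle-like level had been subtracted, the ratio of cbd-1 was 1.11, past 2-fold. Over all alternatives that gave a ratio it ran from 0.56 to 1.50, so its side of 2-fold did not hold.

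The ratios of these genes were not even over the sub-clusters, as the grid of ratios by sub-cluster shows. In sub-cluster 8, an unnamed group of 60 nuclei in ent-1KO;ent-2KD and 146 in ctrl led by Y46H3C.7 and Y9D1A.2, the ratio of ent-1KO;ent-2KD to ctrl was 1.93 (1.73 to 2.14) for cbd-1, 1.90 (1.64 to 2.18) for egg-1 and 1.78 for cpg-2. In sub-cluster 3, of 411 and 956 nuclei, the same genes stood at −0.56 (−0.80 to −0.33), −0.05 (−0.47 to 0.35) and −0.28 (−0.58 to 0.00). cpg-2 was above ctrl in 10 of 12 sub-clusters, egg-1 in 10, cbd-1 in 9 and cpg-1 in 6. Intestine markers moved with the library too. Their summed level in oocyte-like nuclei was 5640 CPM in ent-1KO;ent-2KD, 4022 in ent-1KO, 2604 in ent-2KO and 3669 in ctrl, and that of body wall muscle markers was 886, 498, 514 and 647 CPM. Ribosomal protein transcripts took 4.63%, 4.26%, 3.60% and 3.73% of UMIs there. The part of these values in the ratios was not tested.

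Within the ent-1KO strain, the comparison of ent-1KO;ent-2KD with ent-1KO sets ent-2 RNAi against the empty vector. In oocyte-like nuclei cpg-3 fell past 2-fold, with a log2 ratio of −2.23 (−2.36 to −2.10), and none of the 10 rose past 2-fold. Over the 6574 genes tested 8.9% were lower and 6.33% higher past 2-fold. cpg-2 stood at 0.93 (0.86 to 0.99), egg-1 at 0.83 (0.75 to 0.91), cbd-1 at 0.56 (0.50 to 0.63) and chs-1 at 0.29 (0.19 to 0.38). The median was 0.15 over the 10 genes and 0.06 over all genes. This comparison shares its ent-1KO;ent-2KD library with that to ctrl.

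The single knockouts, which share their ctrl library, stayed close to ctrl for most of the genes. In oocyte-like nuclei none of the 10 genes was past 2-fold in ent-1KO to ctrl, where 0.534% of 6367 genes were past 2-fold in either direction. The largest ratio was that of cbd-1, at 0.30 (0.22 to 0.38), and the median was 0.04 over the 10 genes and 0.03 over all. In ent-2KO to ctrl perm-2 and perm-4 fell past 2-fold, each to 0.33-fold, and 0.745% of 6312 genes were past 2-fold in either direction. The 8 other genes stood at 0.05 to 0.38, with chs-1 at 0.38 (0.27 to 0.49), cbd-1 at 0.37 (0.29 to 0.45), cpg-1 at 0.29 (0.23 to 0.35) and cpg-2 at 0.29 (0.21 to 0.36). Their median was 0.24, beside −0.01 over all genes.

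In embryo-like nuclei none of the 10 genes was past 2-fold in ent-1KO to ctrl, beside 1.39% of 7049 genes. In ent-2KO to ctrl perm-2 and perm-4 fell past 2-fold, at −1.22 (−1.49 to −0.97) and −1.35 (−1.59 to −1.10), beside 1.31% of 7160 genes. chs-1 stood at 0.45 (0.22 to 0.69) in ent-2KO, with 272 CPM (247 to 300) there and 199 CPM (175 to 226) in ctrl. Over the alternative ways of processing this ratio ran from −0.15 to 4.33, so neither its sign nor its side of 2-fold held. perm-2 and perm-4 were near their hypodermis-like levels in embryo-like nuclei.

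perm-2 and perm-4, which are needed for the vitelline layer and the permeability barrier, had another pattern from the rest. In oocyte-like nuclei perm-2 was at 82.5 CPM in ent-1KO;ent-2KD, 113 in ent-1KO, 41.7 in ent-2KO and 126 in ctrl, and perm-4 at 94.8, 142.3, 51.2 and 156 CPM. Both were below their level in hypodermis-like nuclei in each library. In that class perm-2 was at 127, 298, 171 and 311 CPM and perm-4 at 147, 410, 128 and 372 CPM. Their levels in oocyte-like nuclei could thus not be told from background, and the ratios of ent-2KO given above are ratios of such levels. In the other germline-like nuclei both were below the hypodermis-like level too, except perm-4 in ent-1KO;ent-2KD, at 159 CPM. perm-2 and perm-4 were lower in ent-2KO than in ctrl in 13 of 13 germline sub-clusters, each past 2-fold, and in 10 of 10 classes of nuclei. Over all germline-like nuclei, 18 of 6211 genes were lower past 2-fold in this comparison. As the pooled germline levels of both libraries were below the hypodermis-like ones, the sub-clusters do not stand for separate observations.

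Both genes were highest in a cluster of 262, 112, 75 and 99 nuclei in ent-1KO;ent-2KD, ent-1KO, ent-2KO and ctrl, named somatic gonad-like from a list of gonadal sheath and spermatheca markers. This class was added to the comparisons after its perm-2 and perm-4 levels had been seen. It was led by W04A4.2, W09C3.7 and irk-1, with tbh-1, a tyramine beta-hydroxylase known in the gonadal sheath, and the sheath regulator lim-7 also among its leading genes. perm-2 was at 1397 CPM (1313 to 1484) there in ent-1KO;ent-2KD, 12392 CPM (11976 to 12819) in ent-1KO, 5765 CPM (5450 to 6093) in ent-2KO and 13511 CPM (13056 to 13978) in ctrl. perm-4 was at 4461 CPM (4309 to 4616) in ent-1KO;ent-2KD, 15995 CPM (15522 to 16479) in ent-1KO, 8475 CPM (8092 to 8870) in ent-2KO and 18015 CPM (17489 to 18553) in ctrl. For both genes ent-1KO;ent-2KD was lowest, ent-2KO was next, and ent-1KO lay near ctrl.

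The log2 ratio to ctrl of perm-2 was −3.27 (−3.38 to −3.17) in ent-1KO;ent-2KD, −0.12 (−0.19 to −0.06) in ent-1KO and −1.23 (−1.32 to −1.13) in ent-2KO. That of perm-4 was −2.01 (−2.08 to −1.95), −0.17 (−0.23 to −0.11) and −1.09 (−1.17 to −1.01). Among the 10 genes, 4 were lower past 2-fold in ent-1KO;ent-2KD to ctrl in this class, namely perm-2, perm-4, cpg-3 and, at the 2-fold limit, cpg-2, beside 7.61% of 3839 genes. perm-2 and perm-4 had led to the choice of this class, so counts of the 10 genes in it are no measure beside such shares. In ctrl the 8 other genes together were lower here than in hypodermis-like nuclei. The part of background in the cpg-3 and cpg-2 calls was not tested. With muscle-like levels subtracted cpg-3 was at −0.43, under 2-fold. cpg-2 was under 2-fold without integration, at −0.97, and among nuclei of at least 1000 UMIs, at −0.80. In ent-2KO to ctrl perm-2 and perm-4 were lower past 2-fold, beside 3.1% of 1905 genes. Median-of-ratios scaling moved the values of ent-1KO;ent-2KD to ctrl in this class by −0.19, and all genes had a median of 0.17 before it. Thinned to 500 UMIs, 131 of 262 of these nuclei held a perm-2 UMI in ent-1KO;ent-2KD, an interval of 43.8% to 56.2%, against 95.5% (89.9 to 98.5) in ent-1KO, 92.0% (83.4 to 97.0) in ent-2KO and 96.0% in ctrl. The shares with perm-4 were 79.0%, 96.4%, 92.0% and 97.0%. In hypodermis-like nuclei 10.8%, 13.5%, 12.1% and 15.6% held a perm-2 UMI.

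The make-up of the class moved with the libraries. The summed sheath and spermatheca markers, of which 11 of 12 were measured and 1 or 2 were at 0, were at 2756 CPM in ent-1KO;ent-2KD, 3670 in ent-1KO, 4616 in ent-2KO and 4812 in ctrl. lim-7 was at 707, 758, 1768 and 1351 CPM. Body wall muscle markers were at 9541, 6166, 7992 and 9795 CPM and intestine markers at 12315, 7653, 3909 and 5859 CPM. ent-2 was counted by 14 UMIs in these nuclei of ent-1KO;ent-2KD, an interval of 10.4 to 31.8 CPM, against 296 CPM in ent-1KO, 239 CPM (178 to 313) in ent-2KO and 475 CPM (393 to 569) in ctrl. The part of the mix of nuclei in the perm-2 and perm-4 ratios was not tested.

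Muscle-like nuclei were the next highest of the named classes. perm-2 was at 689 CPM in ent-1KO;ent-2KD, 1406 in ent-1KO, 1199 in ent-2KO and 1689 in ctrl in this class, and perm-4 at 699, 1053, 1022 and 1489 CPM. The levels were uneven among its clusters. In cluster 27, led by genes that include mls-1, a regulator of uterine muscle fate, and egl-36, perm-2 was at 1036, 3177, 2392 and 4520 CPM and perm-4 at 1480, 2930, 1798 and 4616 CPM. In cluster 19 perm-2 was at 384, 544, 397 and 561 CPM. perm-2 was lower in ent-1KO;ent-2KD than in ctrl in 9 of 9 classes and perm-4 in 8, a direction that the other genes took in most classes too.

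Other genes of the same processes were counted from lists of 36 genes found in the files. Of the 5 chitin and UDP-GlcNAc supply genes above the minimum, 1 fell past 2-fold in oocyte-like nuclei of ent-1KO;ent-2KD to ctrl. This was chs-2, the other chitin synthase gene of the worm, known for the pharynx, at 11.7 CPM in ent-1KO;ent-2KD and 60.5 CPM in ctrl, with a log2 ratio of −2.34 (−3.10 to −1.70). The list had a median of −0.17. None of 11 chondroitin synthesis and proteoglycan genes (median 0.09), none of 4 egg activation genes (0.30) and none of 3 cortical granule genes (0.08) was past 2-fold. Of 8 permeability barrier genes 1 rose, emb-8, an NADPH-cytochrome P450 reductase, at 218 CPM in ent-1KO;ent-2KD and 95.7 CPM in ctrl, a ratio of 1.18 (0.93 to 1.45), and the list median was 0.38.

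Of 10 oocyte regulators of maternal mRNA, 2 rose and 1 fell past 2-fold, with a median of 0.49. gld-1, a translational repressor of meiotic prophase, was at 373 CPM in ent-1KO;ent-2KD and 138 CPM in ctrl, a log2 ratio of 1.43 (1.22 to 1.64). pos-1, a maternal RNA-binding protein, was at 1445 CPM in ent-1KO;ent-2KD and 610 CPM in ctrl (1.24, 1.14 to 1.34). lin-41, which keeps growing oocytes from maturing early, fell to 199 CPM in ent-1KO;ent-2KD, against 487 CPM in ctrl (−1.29, −1.47 to −1.11). lin-41, oma-1, oma-2, puf-3, puf-5, puf-11, spn-4 and pos-1 are also among the markers that named the oocyte-like sub-clusters. gld-1 and mex-3 are among those that named the germline-like clusters. All 10 regulators thus helped to choose the nuclei, and their median is no independent readout. Beside these counts stand the 7.52% higher and 7.76% lower of all genes, and a single call in a list this short says little beside that share. The 2 of 10 regulators that rose are above it, in a list that helped to choose the nuclei.

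Markers of other nuclei also moved with the ent-1KO;ent-2KD library. In oocyte-like nuclei, of 6 intestine markers above the minimum vit-1, a yolk protein gene, rose past 2-fold at 1.08 (0.93 to 1.24). Of all genes 7.52% did so there. The median of the 7 body wall muscle markers was 0.51, and no sperm marker reached the minimum. The 2 neuron markers and the 1 hypodermis marker above the minimum had medians of 0.68 each. Both neuron markers reached 20 CPM only in ent-1KO;ent-2KD, so the minimum favoured a rise in that list. Over all germline-like nuclei 2 of 4 neuron markers rose past 2-fold, namely ida-1 at 1.56 (1.21 to 1.93) and egl-21 at 1.02 (0.76 to 1.28), both of which serve neuropeptide-filled vesicles. The 2 hypodermis markers above the minimum, the cuticle collagen genes dpy-13 at 1.40 (1.05 to 1.78) and dpy-17 at 1.19 (0.91 to 1.47), rose as well. Of all genes 6.09% were higher past 2-fold in these nuclei. However, ida-1, egl-21, dpy-13 and dpy-17 reached 20 CPM only in ent-1KO;ent-2KD. The minimum thus favoured a rise, and these counts do not measure how the marker lists moved. The summed level of the 18 neuron markers in germline-like nuclei was 560 CPM in ent-1KO;ent-2KD, 360 in ent-1KO, 283 in ent-2KO and 305 in ctrl, and none of them was at 0. The part of these markers in the ratios of the 10 genes was not tested.

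The genes most like the summed level of the 10 were sought over 51 points, each a germline sub-cluster in 1 library, among 9751 genes. Pearson's r of log2(CPM + 10) was 0.972 for mex-6, 0.968 for puf-7, 0.959 for puf-3, 0.956 for F32D1.7 and 0.956 for mex-5. mex-5, mex-6 and puf-3 are themselves on the list that named the oocyte-like sub-clusters. Among the 10 genes themselves, egg-3 had the highest r to the sum, at 0.972, and cpg-3 had 0.637. cpg-2 was most like egg-1 (0.961), cbd-1 was most like chs-1 (0.903), and perm-2 was most like perm-4 (0.969). perm-2 and perm-4 had an r of −0.37 and −0.41 to the sum. The points share libraries and depth and the 10 genes are part of the sum, so these values describe the profiles and carry no test.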

How the data were processed

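Nuclei of whole worms were stained with Hoechst, sorted and profiled with 10x 3′ chemistry, 1 library per condition. The authors aligned reads to genome release WS282 with Cell Ranger 6.0 and deposited raw UMI counts per gene and nucleus; strand and intron settings are not given in the sources used here. All 4 libraries were used. Nuclei with at least 200 genes and under 10% mitochondrial UMIs were kept, which removed none. Scrublet's automatic limit called at most 3 nuclei a library and was not used: the nuclei of highest score, 0.8% per 1000, were removed (1089 to 1784). Nuclei were clustered in Seurat 5.3.0 (R 4.3.3; 2000 variable genes, 30 components, resolution 0.8, libraries integrated by canonical correlation), and germline-like nuclei were clustered again. The 10 genes and listed eggshell genes were kept out of the variable genes. A cluster was named "-like" where at least 3 markers were raised and the median log2 score of the markers reached 0.5. It stayed unnamed if rich in ribosomal transcripts, led more by markers of another class, or shallow without a leading marker. A cluster below every tissue score joined the germline-like nuclei where its oocyte markers met the same limits, as cluster 9 did. Of 38 clusters 14 stayed unnamed, and of 13 germline sub-clusters 9.

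UMIs were summed per class and library and divided by the class total. Poisson and binomial intervals are exact at 95%, ratio intervals are conditional binomial, and all cover counting error only. Ratios needed 50 nuclei in both libraries. The scripts were tested on simulated data. Python 3.11.15, numpy 2.4.6, scipy 1.17.1, pandas 2.3.3, scanpy 1.11.5 and matplotlib 3.10.9 were used. The 10 genes, ent-1, ent-2, listed genes past 2-fold in ent-1KO;ent-2KD to ctrl and the 5 genes most like the sum were named; R06C7.6, T25G3.3, marker sums, lim-7 and genes that lead clusters were named besides. The members and lists were chosen with earlier results of these data known. Positions are from the WBcel235 annotation. In all, 13 alternatives were planned and 1 was added after seeing the data. The authors' clusters and comparisons were not used here.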

Additional observations from a re-analysis of the deposited data

How the results depend on the processing

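Of the 10 genes in oocyte-like nuclei of ent-1KO;ent-2KD to ctrl, 9 kept their sign in every alternative that gave a ratio (cpg-1 did not) and 8 their side of 2-fold (cpg-2 and cbd-1 did not). cpg-3 ran from −2.33 to −1.91 over these. The median over the 10 genes, 0.27, was 0.57 with muscle-like levels subtracted, 0.80 with hypodermis-like levels subtracted (chosen after seeing the data) and −0.049 without integration, and the cause was not tested. Of the 10 genes, 1 rose past 2-fold with muscle-like and 2 with hypodermis-like levels subtracted. In all germline-like nuclei the median, 0.05, was 0.33 with muscle-like and 0.65 with hypodermis-like levels subtracted, 0.57 without integration and −0.14 with the sub-cluster mix of ctrl. There cpg-3 ran from −2.40 to −0.99 and 5 genes changed their side of 2-fold in some alternative (cpg-2, cpg-3, egg-1, perm-2 and perm-4). With hypodermis-like levels subtracted 1 gene rose past 2-fold. Without integration 2 rose (cpg-2 and egg-1) and 2 fell (perm-2 and perm-4), and cpg-3 no longer did. Without integration 896 germline-like nuclei were left in ent-1KO;ent-2KD, 775 of them oocyte-like, against 739 of 6282 in ctrl. These pools thus differed in their mix of nuclei, and its part in the ratios was not tested. Shares of nuclei all moved with the depth of thinning. In oocyte-like nuclei of ent-2KO to ctrl, egg-2 alone changed sign and no gene changed its side of 2-fold. In somatic gonad-like nuclei of ent-1KO;ent-2KD to ctrl, cpg-3 ran from −2.51 to −0.43 and cpg-2 from −1.70 to −0.80, while perm-2 and perm-4 kept their side of 2-fold. In embryo-like nuclei of ent-2KO to ctrl, 7 genes changed sign in some alternative. No paired analysis was possible because each condition has 1 library, and for the same reason no library could be left out. Intervals cover counting error only, so differences between worms, RNAi or preparation cannot be told from those of the conditions.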

Other observations

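Sperm-like nuclei entered the counts and ranges over classes of nuclei and were not compared otherwise. cpg-1 was at 512 CPM in sperm-like nuclei of ent-1KO;ent-2KD, 641 in ent-1KO, 569 in ent-2KO and 563 in ctrl, and cpg-3 at 68 CPM in ent-1KO;ent-2KD, against 279, 212 and 212 CPM in the others.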
